A study of Mus musculus with 7 samples.

Results

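The genes described here encode the proteins of the mitochondrial ribosome. They are the 78 protein-coding genes, of 51138 gene rows in the count table, whose symbol starts with Mrpl (49 genes, named for the large subunit) or Mrps (29 genes, named for the small subunit) followed by a digit. Their RNA was read in regulatory T cells (Tregs), the Foxp3-expressing T cells that restrain immune responses, sorted from mouse spleens. The mice were labelled C57/BL6 and carried the RFP-FoxP3 reporter, in both groups. The FP group (4 libraries) had received an injection of 20 ug of IL-2/CD25, a protein made of interleukin-2 joined to CD25, the alpha chain of the receptor for it, and the PBS group (3 libraries) had received 100 uL of PBS, and both were sampled 72 h after the injection. The labels give neither the age of the mice nor whether each library came from a separate mouse, so p-values measure the spread between these libraries, which may be technical.

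The mitochondrial ribosome makes only the proteins encoded in mitochondrial DNA, all of them subunits of the respiratory chain and of ATP synthase. Its proteins are encoded in the nucleus, made in the cytosol and imported, and they surround a small and a large ribosomal RNA that come from the mitochondrial genome. The small subunit reads the messenger RNA and the large subunit joins amino acids and holds the exit tunnel for the new chain. T cells are known to raise mitochondrial protein synthesis when they are activated.

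Libraries held 9956509 to 13429878 counts, and the 76 members tested had 33 to 948 counts in a library, with a median of 229. Values are CPM, which is counts per 1000000 counts of the library. Library sizes were scaled by edgeR's TMM factors (trimmed mean of M values) of 0.839 to 1.05 in FP libraries and 1.07 to 1.15 in PBS libraries. Il2ra, the alpha chain of the interleukin-2 receptor and itself a part of the injected protein, averaged 1938 ± 317 CPM in FP libraries and 602 ± 32.6 CPM in PBS libraries (SD, n = 4 and 3). Foxp3 averaged 540 ± 52.9 CPM in FP libraries and 491 ± 7.24 CPM in PBS libraries, and did not pass the test (edgeR adjusted p = 0.292). Over all 15954 genes tested, 39.5% passed an adjusted p of 0.05. Of the 15954, 3355 (21.0%) passed it as higher after FP and 2953 as lower.

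Genes of the mitochondrial ribosome were higher after FP than after PBS as a group, and none passed the test as lower. By edgeR's quasi-likelihood test with Benjamini-Hochberg adjustment, 47 of the 76 members tested rose after FP, which is 61.8% against 21.0% of all genes tested, and 29 did not pass. All members are protein coding. Among the 11981 protein-coding genes tested, 26.3% rose and the median log2 fold change was 0.03. The log2 fold changes of the 76 ran from -0.42 to 1.42 with a median of 0.57 and quartiles of 0.39 and 0.81, where the median of all genes tested was -0.05. Of the 76 members, 67 had a log2 fold change above 0 and 15 were at least 2-fold higher. Among all 15954 genes tested, these counts were 7364 and 1209. At an unadjusted p under 0.05, 55 members were higher and 0 were lower, against 3975 and 3798 of all 15954 genes. DESeq2's test called 53 members higher and 0 lower. FP and PBS libraries did not overlap, with FP the higher, in 47 members, against 23.2% of all genes tested, and 43 of these 47 were among the genes that rose. The same lack of overlap was seen in 3462 of the 11981 protein-coding genes tested.

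The count of risen members depended on single libraries: it was 29 without FP library 2, 28 without PBS library 2 and 23 without PBS library 3, while the median log2 fold change stayed between 0.49 and 0.66 whichever library was left out. With library size alone as the scaling, 28 members rose and 5 fell, and with upper-quartile factors 32 rose and 5 fell. These scalings moved the median of all genes to -0.31 and -0.25, against -0.05 with TMM, and 2023 of 7069 and 2399 of 7222 genes that passed were then higher, against 3355 of 6308 with TMM. Of the 47 members that rose, 18 did so under each of the 17 alternatives tried, and 16 of those 18 belong to the large subunit. The 2 small subunit members among them were Mrps16 and Mrps21.

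**Figure D1:**
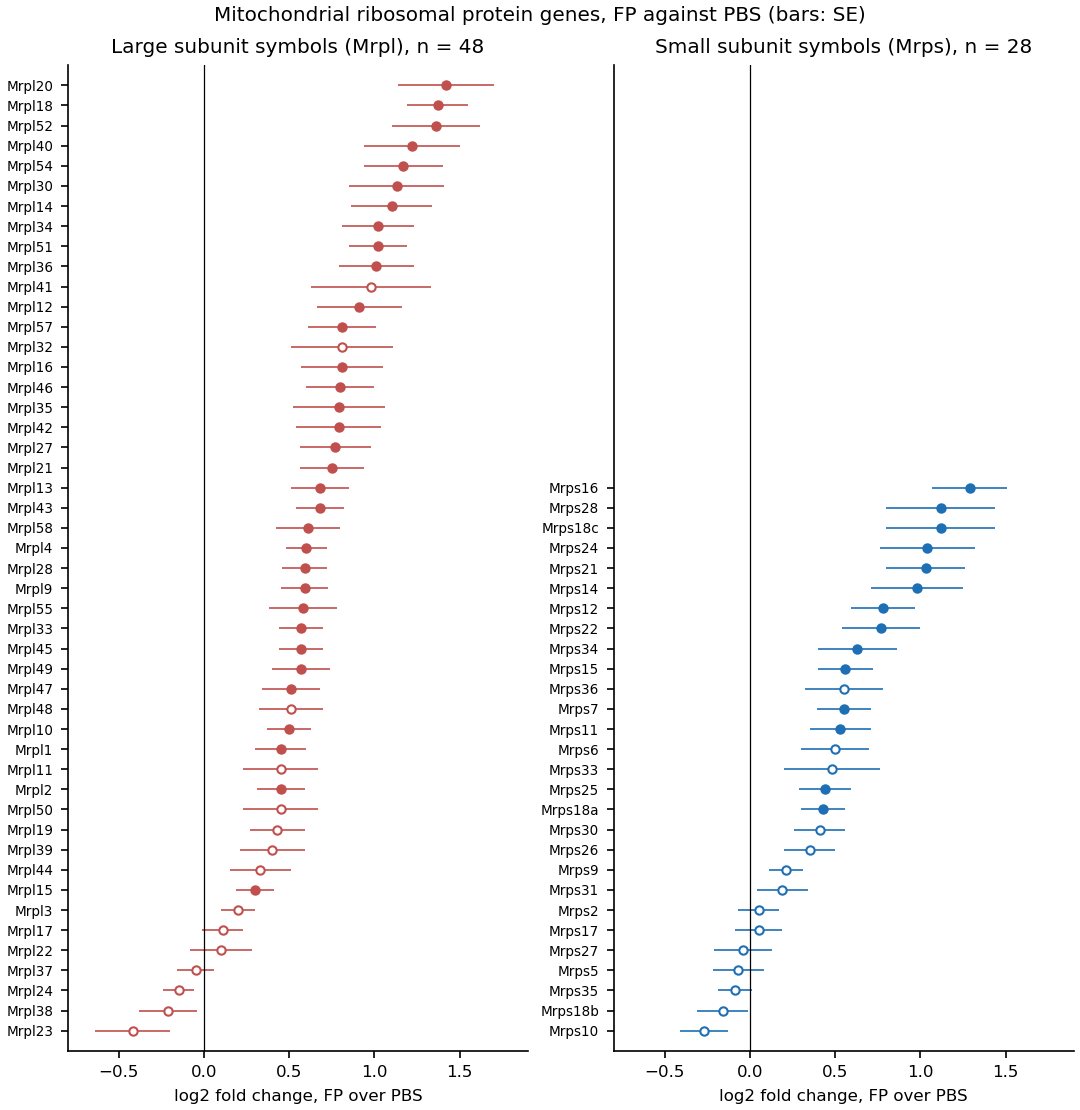
Log2 fold change (horizontal axis, FP over PBS) of each tested member, large subunit symbols on the left (n = 48) and small subunit symbols on the right (n = 28), with the standard error as a bar. Filled points passed an adjusted p of 0.05 in edgeR and open points did not. The values run from -0.42 for Mrpl23 to 1.42 for Mrpl20.

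Sorted cells can hold other cell types, and bulk libraries cannot tell apart fewer cells of a type and less RNA per cell. The summed level of 8 marker genes of dividing cells was 1769 to 3323 CPM in FP libraries and 120 to 160 CPM in PBS libraries, and 8 of the 8 rose. The 15 markers of monocytes and macrophages summed to 32.4 to 142 CPM in FP libraries and 661 to 1648 CPM in PBS libraries, and 14 of the 14 tested fell. Markers of dendritic cells summed to 11.7 to 15.7 CPM in FP libraries and 24.4 to 35.6 CPM in PBS libraries, with 3 of 3 tested lower after FP, and those of NK cells to 0.967 to 1.56 CPM in FP libraries and 4.03 to 5.96 CPM in PBS libraries, with 1 of 1 tested lower and Klra8 at 0 in every library. Markers of B cells (23.4 to 32.3 CPM in FP libraries, 23.0 to 38.4 CPM in PBS libraries) and of erythroid cells (10.4 to 28.5 CPM in FP libraries, 14.8 to 32.7 CPM in PBS libraries) overlapped between the groups. CD8 T cell markers (7.84 to 12.9 CPM in FP libraries, 8.93 to 9.80 CPM in PBS libraries) overlapped as well, and neutrophil markers, with Elane at 0, summed to 1.83 to 4.71 CPM in FP libraries and 0.788 to 0.953 CPM in PBS libraries. Markers of T cells and Tregs summed to 4950 to 5694 CPM in FP libraries and 3083 to 3426 CPM in PBS libraries, and 3 of the 6 rose. Il2ra is among the 6 and alone averaged 1938 CPM in FP libraries and 602 CPM in PBS libraries. The part of these shifts in the members' levels was not tested.

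In the large subunit, 33 of 48 genes tested rose after FP (68.8%), their log2 fold changes had a median of 0.59, and 10 were at least 2-fold higher. The largest log2 fold change was that of Mrpl20, the counterpart of a bacterial protein that acts early in large subunit assembly. Mrpl20 (chr4:155802878-155809975, GRCm38) had 43.7, 48.7, 27.7 and 21.0 CPM in FP libraries 1 to 4, against 15.2, 13.0 and 11.2 CPM in PBS libraries 1 to 3. Every FP library lay above every PBS library, and FP libraries 1 and 2 stood well above 3 and 4. The log2 fold change was 1.42 (SE 0.28, edgeR adjusted p = 0.00378).

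Mrpl18 (chr17:12911349-12916345), which in the assembled ribosome sits in the central protuberance of the large subunit, had 67.0, 61.4, 47.5 and 40.5 CPM in FP libraries and 23.7, 19.8 and 19.2 CPM in PBS libraries. The groups were far apart, with the lowest FP library above every PBS library. Its log2 fold change of 1.37 (SE 0.18) had the smallest adjusted p of all members, 0.000295 in edgeR. Mrpl52, a large subunit protein that bacteria lack, had 72.0, 58.8, 43.7 and 31.3 CPM in FP libraries and 23.8, 18.0 and 18.3 CPM in PBS libraries. The FP libraries again did not overlap the PBS libraries, and they were themselves far apart. Its log2 fold change was 1.36 (SE 0.26, edgeR adjusted p = 0.0034). Its promoter is printed because 2 ETS motifs lie in it. The window is chr14:54426659-54426958 on the plus strand (RefSeq, GRCm38.p6), from 250 bases before to 50 bases after RefSeq's start, and capitals mark the motifs described further on.
Mrpl52: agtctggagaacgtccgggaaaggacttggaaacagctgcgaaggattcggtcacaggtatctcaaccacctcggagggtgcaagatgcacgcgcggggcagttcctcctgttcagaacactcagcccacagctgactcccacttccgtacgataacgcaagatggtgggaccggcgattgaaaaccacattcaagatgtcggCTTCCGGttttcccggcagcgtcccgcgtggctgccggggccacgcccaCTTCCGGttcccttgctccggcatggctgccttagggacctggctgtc

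Mrpl40 and Mrpl54, both without a bacterial counterpart, completed the highest members of the large subunit. Mrpl40 had 49.0, 38.9, 28.9 and 19.2 CPM in FP libraries and 16.2, 13.9 and 13.7 CPM in PBS libraries, a log2 fold change of 1.22 (SE 0.28, edgeR adjusted p = 0.00756). Its FP libraries ranged widely, and the lowest of them lay just above the highest PBS library. Mrpl54 had 38.6, 38.1, 27.7 and 19.3 CPM in FP libraries and 14.8, 13.6 and 12.5 CPM in PBS libraries, a log2 fold change of 1.17 (SE 0.23, edgeR adjusted p = 0.00301). It too was higher in each FP library than in each PBS library.

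The stalk of the large subunit recruits translation factors, and its genes did not all pass. Mrpl12, the stalk protein itself, had 38.8, 42.4, 25.2 and 20.2 CPM in FP libraries and 18.0, 17.4 and 14.8 CPM in PBS libraries. The groups did not overlap, and FP libraries 1 and 2 were the highest. It rose by a log2 fold change of 0.91 (SE 0.25, edgeR adjusted p = 0.0151), but missed the threshold without PBS library 3 (adjusted p = 0.0689). Mrpl10, which anchors the stalk, had 36.0, 40.2, 37.0 and 30.2 CPM in FP libraries and 27.8, 24.9 and 23.1 CPM in PBS libraries and rose by 0.50 (SE 0.13, edgeR adjusted p = 0.0106). Mrpl11, at the stalk's base, had 21.8, 18.0, 12.8 and 11.6 CPM in FP libraries and 12.8, 11.6 and 10.7 CPM in PBS libraries. Its FP libraries 3 and 4 lay within the PBS range, and its log2 fold change of 0.45 (SE 0.22) did not pass (edgeR adjusted p = 0.13). Mrpl44, which has the fold of an RNA-cutting enzyme, had 17.9, 16.9, 14.2 and 12.6 CPM in FP libraries and 14.3, 9.82 and 12.6 CPM in PBS libraries. The groups overlapped, and its log2 fold change of 0.33 (SE 0.18) did not pass either (edgeR adjusted p = 0.171).

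**Figure D2:**
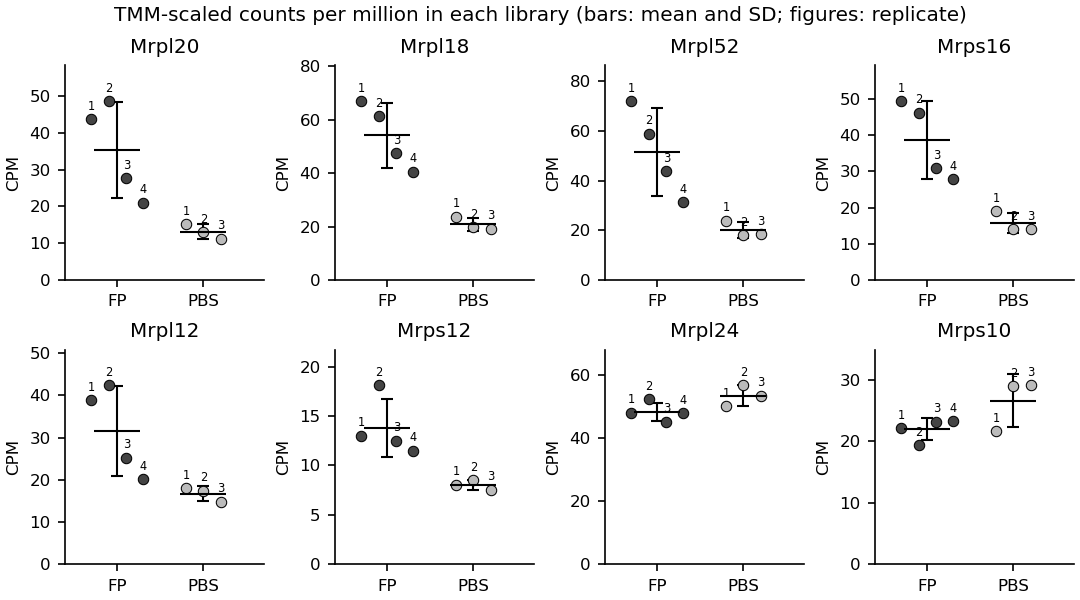
CPM scaled with TMM factors (vertical axes, each starting at 0) of 8 members in the 4 FP libraries (dark points) and 3 PBS libraries (light points), with the replicate number above each point and the mean and SD as bars. FP libraries 1 and 2 are the highest for Mrpl20, Mrpl18, Mrpl52, Mrps16, Mrpl12 and Mrps12, whereas for Mrpl24 and Mrps10 the FP mean is the lower one.

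In the small subunit, 14 of 28 genes tested rose after FP (50%), the median of the log2 fold changes was 0.49, and 5 were at least 2-fold higher. The count of 14 became 5 without FP library 2, 5 without PBS library 2 and 3 without PBS library 3, and limma-voom called 9. Mrps16, the counterpart of a bacterial small subunit protein, had the largest log2 fold change, 1.29 (SE 0.22, edgeR adjusted p = 0.00155). It had 49.5, 46.3, 31.0 and 27.8 CPM in FP libraries and 19.1, 14.1 and 14.1 CPM in PBS libraries. No FP library came near the PBS range, and FP libraries 1 and 2 were again the highest. RefSeq gives 2 start windows for Mrps16. The one printed, for its pair of ETS motifs like that of Mrpl52, is chr14:20393441-20393740 on the minus strand (RefSeq, GRCm38.p6). The other, chr14:20393585-20393884, lies at the start that GENCODE gives and holds none of the motifs searched.
Mrps16: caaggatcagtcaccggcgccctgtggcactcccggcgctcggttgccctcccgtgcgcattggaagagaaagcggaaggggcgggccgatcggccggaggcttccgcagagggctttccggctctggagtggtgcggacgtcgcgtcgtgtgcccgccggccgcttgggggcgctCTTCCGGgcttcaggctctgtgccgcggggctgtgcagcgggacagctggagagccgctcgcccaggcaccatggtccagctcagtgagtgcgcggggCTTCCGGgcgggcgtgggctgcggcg

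Mrps21 had 42.6, 39.2, 28.1 and 20.7 CPM in FP libraries and 16.5, 16.4 and 14.7 CPM in PBS libraries, and rose by a log2 fold change of 1.03 (SE 0.23, edgeR adjusted p = 0.0058). Mrps24 had 41.3, 47.7, 24.1 and 21.6 CPM in FP libraries and 18.0, 16.9 and 13.9 CPM in PBS libraries, and rose by 1.04 (SE 0.28, edgeR adjusted p = 0.0148), but missed the threshold without PBS library 3 (adjusted p = 0.0684) and with no filter on low counts (adjusted p = 0.0563). Mrps15 had 35.8, 32.1, 28.3 and 22.7 CPM in FP libraries and 21.5, 21.2 and 17.9 CPM in PBS libraries, and rose by 0.56 (SE 0.16, edgeR adjusted p = 0.0204). For these 3 counterparts of bacterial proteins the FP libraries lay above all PBS libraries, by a small margin for Mrps15, whose call was lost without FP library 2 (adjusted p = 0.0504), PBS library 2 (0.0533) or PBS library 3 (0.0953). Its log2 fold change was 0.27 when scaled by library size alone (adjusted p = 0.109) and 0.35 under upper-quartile factors (adjusted p = 0.0651).

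Mrps12, part of the decoding centre of the small subunit, had 13.0, 18.1, 12.5 and 11.5 CPM in FP libraries and 8.04, 8.50 and 7.53 CPM in PBS libraries. The groups did not overlap, and the log2 fold change was 0.78 (SE 0.19, edgeR adjusted p = 0.00795). Its start lies 172 bp from that of Sars2, the mitochondrial seryl-tRNA synthetase, on the opposite strand. Sars2 had 12.0, 11.2, 11.5 and 12.8 CPM in FP libraries and 6.71, 9.16 and 7.62 CPM in PBS libraries, with no overlap between the groups, and rose by a log2 fold change of 0.60 (SE 0.16, edgeR adjusted p = 0.0142). The window around the start of Mrps12, shown because both genes rose on either side of it, is chr7:28741772-28742071 on the minus strand (RefSeq, GRCm38.p6), with a YY1 motif in its first part and an ETS motif near the start.
Mrps12: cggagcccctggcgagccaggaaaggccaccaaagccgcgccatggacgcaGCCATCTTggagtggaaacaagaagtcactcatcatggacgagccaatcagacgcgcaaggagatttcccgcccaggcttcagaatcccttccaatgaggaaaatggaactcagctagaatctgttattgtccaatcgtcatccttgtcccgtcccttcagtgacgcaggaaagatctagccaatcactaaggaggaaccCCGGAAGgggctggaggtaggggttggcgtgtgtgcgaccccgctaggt

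Mrps22 and Mrps34 are small subunit proteins that bacteria lack. Mrps22 had 29.2, 25.6, 16.4 and 14.8 CPM in FP libraries and 12.7, 12.4 and 12.4 CPM in PBS libraries, and rose by a log2 fold change of 0.77 (SE 0.23, edgeR adjusted p = 0.0239). The adjusted p was 0.0646 without FP library 2, 0.0752 without PBS library 2 and 0.0773 without PBS library 3. It was 0.0513 in limma-voom and, at a log2 fold change of 0.48, 0.0552 with library size alone. Mrps34 had 7.85, 5.86, 5.13 and 4.92 CPM in FP libraries and 4.15, 3.96 and 3.33 CPM in PBS libraries, which did not overlap, with a log2 fold change of 0.63 (SE 0.23) at an adjusted p of 0.0497, at the edge of the threshold. It rose under 6 of the 17 alternatives. Of its exonic bases, 63.4% overlap Mapk8ip3 on the opposite strand, and reads of the pair cannot be told apart if strand was not used in counting.

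The 3 genes Mrps18a, Mrps18b and Mrps18c all descend from the bacterial protein S18 but sit in different places. Mrps18c holds the bacterial place in the small subunit, Mrps18b is elsewhere in the small subunit, and Mrps18a is in the large subunit despite its name. Mrps18c had 33.1, 29.8, 13.7 and 14.8 CPM in FP libraries and 11.1, 10.1 and 10.2 CPM in PBS libraries. FP libraries 1 and 2 stood far above 3 and 4, and all 4 exceeded the PBS libraries. Its log2 fold change was 1.12 (SE 0.32, edgeR adjusted p = 0.0194), and the adjusted p was 0.0566 without FP library 2, 0.0678 without PBS library 2, 0.0729 without PBS library 3 and 0.0672 with no filter.

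Mrps18a had 21.6, 24.7, 23.8 and 19.3 CPM in FP libraries and 15.8, 17.4 and 16.6 CPM in PBS libraries. Its FP libraries were close together and above all PBS libraries. It rose by a log2 fold change of 0.43 (SE 0.13, edgeR adjusted p = 0.0255), and missed the threshold without any one of FP libraries 2 and 3 and PBS libraries 1, 2 and 3 (adjusted p from 0.0592 to 0.0871). Scaling by library size alone gave 0.15 (adjusted p = 0.383), and upper-quartile factors gave 0.22 (adjusted p = 0.164). Mrps18b had 9.57, 9.68, 8.61 and 7.92 CPM in FP libraries and 9.63, 9.75 and 10.5 CPM in PBS libraries. The groups overlapped, and its log2 fold change of -0.16 (SE 0.15) did not pass (edgeR adjusted p = 0.434). Of exonic bases, 30.5% of Mrps18b overlap Gm16279 on the opposite strand, and 23.2% of Mrps18c overlap Gm43511 on the same strand. Mrps18a overlaps no other tested gene. The difference in response between the 3 genes was not tested. Their promoters are set side by side because these related genes had different values: Mrps18a at chr17:46110754-46111053 on the plus strand, Mrps18b at chr17:35916391-35916690 on the minus strand and Mrps18c at chr5:100798509-100798808 on the plus strand (RefSeq, GRCm38.p6). All 3 windows hold an ETS motif, that of Mrps18a also a YY1 motif after the start, that of Mrps18b an NRF1 core far upstream, and that of Mrps18c an E-box next to its ETS motif.
Mrps18a: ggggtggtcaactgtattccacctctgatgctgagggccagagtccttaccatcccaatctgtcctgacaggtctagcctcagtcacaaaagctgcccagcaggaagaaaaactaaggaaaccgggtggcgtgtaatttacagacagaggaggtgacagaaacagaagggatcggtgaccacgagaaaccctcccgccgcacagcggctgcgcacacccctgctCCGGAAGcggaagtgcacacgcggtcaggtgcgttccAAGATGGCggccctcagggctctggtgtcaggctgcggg
Mrps18b: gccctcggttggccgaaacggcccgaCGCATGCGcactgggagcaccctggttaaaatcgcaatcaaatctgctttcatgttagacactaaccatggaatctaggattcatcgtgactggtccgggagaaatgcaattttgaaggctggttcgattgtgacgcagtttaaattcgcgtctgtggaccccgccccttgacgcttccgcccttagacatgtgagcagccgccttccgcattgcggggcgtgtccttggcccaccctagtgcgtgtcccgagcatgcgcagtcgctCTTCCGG
Mrps18c: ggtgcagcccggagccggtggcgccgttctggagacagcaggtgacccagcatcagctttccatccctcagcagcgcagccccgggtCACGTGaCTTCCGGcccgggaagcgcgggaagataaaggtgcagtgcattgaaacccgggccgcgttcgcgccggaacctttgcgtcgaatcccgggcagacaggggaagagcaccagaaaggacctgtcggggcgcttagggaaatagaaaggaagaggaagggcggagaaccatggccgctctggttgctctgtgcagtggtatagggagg

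Other members also carry a symbol that differs from their place. Mrps30, a large subunit protein, had 21.3, 27.5, 19.9 and 18.8 CPM in FP libraries and 16.7, 16 and 16.6 CPM in PBS libraries. These groups did not overlap, yet its log2 fold change of 0.41 (SE 0.15) missed the threshold (edgeR adjusted p = 0.0529). Mrps36, since described as a subunit of the 2-oxoglutarate dehydrogenase complex, had 5.70, 4.62, 3.66 and 4.42 CPM in FP libraries and 3.62, 2.86 and 2.89 CPM in PBS libraries. The lowest FP library was just above the highest PBS library, and its log2 fold change of 0.55 (SE 0.23) did not pass (edgeR adjusted p = 0.0788). With Mrps30 and Mrps18a counted in the large subunit and Mrps36 left out, 34 of 50 large subunit genes (median log2 fold change 0.59) and 13 of 25 small subunit genes (median 0.50) rose.

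The lowest values were those of Mrpl23, Mrps10, Mrpl38, Mrps18b and Mrpl24, none of which passed the test. Mrpl23, at the rim of the exit tunnel, had 13.4, 10.7, 9.89 and 6.77 CPM in FP libraries and 11.5, 14.4 and 14.8 CPM in PBS libraries, a log2 fold change of -0.42 (SE 0.22, edgeR adjusted p = 0.145). FP library 1 lay within the PBS range and FP library 4 far below it. Mrps10 had 22.1, 19.4, 23.2 and 23.3 CPM in FP libraries and 21.6, 29.0 and 29.1 CPM in PBS libraries, a log2 fold change of -0.27 (SE 0.14, edgeR adjusted p = 0.149). PBS library 1 fell among the FP libraries. Mrpl38 had 14.7, 16.2, 11.2 and 10.8 CPM in FP libraries and 14.7, 15.7 and 15.4 CPM in PBS libraries, a log2 fold change of -0.21 (SE 0.17, edgeR adjusted p = 0.347). FP libraries 3 and 4 lay below the PBS range, and FP libraries 1 and 2 did not.

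Mrpl24 had the highest level per kilobase of exon of all members in PBS libraries. It had 48.0, 52.2, 45.2 and 47.8 CPM in FP libraries and 50.1, 56.7 and 53.4 CPM in PBS libraries. The groups overlapped through FP library 2, and the log2 fold change was -0.15 (SE 0.09, edgeR adjusted p = 0.246). Per kilobase of exon, Mrpl24 had a level of 21.4 CPM in FP libraries and 23.7 CPM in PBS libraries, and ranked 9 after FP and 1 after PBS among the members. These ranks use the length of all annotated exons of a gene together, not that of the transcript expressed. Of the exonic bases of Mrpl24, 26.3% overlap Rrnad1 on the opposite strand. Mrpl52, at 46.4 CPM per kilobase in FP libraries and 18.1 in PBS libraries, ranked 1 after FP and 3 after PBS. Mrps21 ranked 2 in both groups, with 44.2 CPM per kilobase in FP libraries and 21.5 in PBS libraries. The median large subunit gene had a level of 10.1 CPM per kilobase in FP libraries and 7.09 in PBS libraries, and the median small subunit gene 6.44 in FP libraries and 4.82 in PBS libraries.

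Mrpl53 and Mrps23 could not be tested. Mrps23 had 0 counts in all 7 libraries, which allows up to 0.214 to 0.322 CPM for counting error alone. Whether another gene overlaps it in GENCODE vM13, by which the reads were counted, was not checked. Mrpl53 had 2, 3, 0 and 0 counts in FP libraries and 1, 7 and 3 counts in PBS libraries, and it lies wholly inside Gm42688 on the same strand. How reads that fit several genes or places were treated is not given in the sources used here.

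Summed over all members, the level was 2378, 2331, 1795 and 1568 CPM in FP libraries 1 to 4 and 1413, 1367 and 1313 CPM in PBS libraries 1 to 3. That is 2018 ± 400 CPM after FP and 1364 ± 50.1 CPM after PBS (SD, n = 4 and 3), a ratio of 1.48. The lowest FP library was above the highest PBS library. As a share of all counts, with no TMM scaling, the members took 0.199, 0.198, 0.174 and 0.164% in FP libraries and 0.151, 0.153 and 0.151% in PBS libraries, a ratio of 1.21. The groups did not overlap on this scale either, and the spread between FP libraries was the larger one on both scales.

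Among FP libraries, most members were highest in library 1 or 2 and lowest in library 4. Of the 76 members tested, 37 were highest in FP library 1 and 36 in FP library 2, and 65 were lowest in FP library 4. Over all 78 members, the median log2 difference from the PBS mean was 0.70, 0.76, 0.38 and 0.19 in FP libraries 1 to 4 and 0.07, 0.00 and -0.06 in PBS libraries 1 to 3. The summed markers of dividing cells were also lowest in FP library 4, at 1769 CPM, but stood at 3032, 3323 and 3061 CPM in FP libraries 1 to 3. The nuclear genes of oxidative phosphorylation and the cytosolic ribosomal proteins were also higher in FP libraries 1 and 2 than in 3 and lowest in 4, with FP library 1 above 2 and medians of 1.35, 1.33, 0.79 and 0.44 for oxidative phosphorylation and 1.16, 1.0, 0.33 and -0.03 for cytosolic ribosomal proteins in FP libraries 1 to 4.

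**Figure D3:**
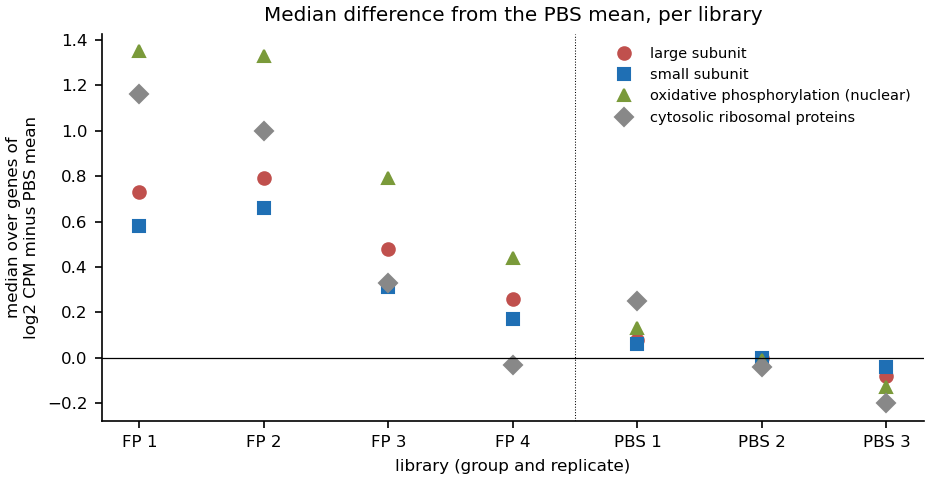
Median over genes of the log2 CPM difference from the PBS mean (vertical axis) in each library (horizontal axis) for large subunit and small subunit members, nuclear oxidative phosphorylation subunits and cytosolic ribosomal proteins. The large subunit stands at 0.73, 0.79, 0.48 and 0.26 and the small subunit at 0.58, 0.66, 0.31 and 0.17 in FP libraries 1 to 4, and both lie within 0.08 of 0 in the PBS libraries.

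The difference between the subunits was not tested. Large subunit genes had the higher median log2 fold change (0.59, small subunit 0.49), though not in each class of exonic length below. Their summed level was 1389 ± 290 CPM after FP and 900 ± 34.5 CPM after PBS (ratio 1.54), against 629 ± 111 CPM after FP and 464 ± 15.7 CPM after PBS for the small subunit (ratio 1.35; SD, n = 4 and 3). The ratio of large to small subunit CPM was 2.30, 2.21, 2.22 and 2.06 in FP libraries and 1.94, 1.95 and 1.92 in PBS libraries, so that every FP library was above every PBS library. Per kilobase of exon, which gives short genes more weight, the ratio was 2.41, 2.37, 2.49 and 2.38 in FP libraries and 2.29, 2.24 and 2.24 in PBS libraries, again with no overlap but with a narrower gap.

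The fold change of a member went with the length of its exons. Across the 76 members tested, the log2 fold change and exonic length had a Spearman rho of -0.51, and across all 11981 protein-coding genes tested the rho was -0.19; genes of one library are not independent replicates, and no p is given. With the members split into 4 classes of equal size by exonic length, 16 of the 19 with the shortest exons, 607 to 1466 bp, rose and their median was 1.01 on the log2 scale, where 708 other protein-coding genes of that length had a median of 0.43 and 40% rose. In the next class, 1520 to 2533 bp, 11 of 19 members rose (median 0.53), where 30.3% of 1631 other genes rose (median 0.17). At 2550 to 4295 bp, 15 of 19 members rose (median 0.61), where 28.5% of 3233 other genes rose (median 0.09). In the class with the longest exons, 4358 to 8631 bp, 5 of 19 rose (median 0.30), where 23.4% of 4510 other genes rose (median -0.02). The members' medians were therefore above those of other genes in each class. From the shortest class to the longest, the large subunit medians were 0.98, 0.57, 0.61 and 0.43. Those of the small subunit were 1.04, 0.51, 0.60 and 0.13.

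Other short genes shifted in the FP libraries in the order the members did. In the shortest class, the median log2 difference of the other protein-coding genes from the PBS mean was 0.57, 0.63, 0.25 and 0.12 in FP libraries 1 to 4 and 0.08, 0.00 and -0.08 in PBS libraries 1 to 3. When a trend on exonic length was taken out of each library, a step that was added after seeing the data and that also removes any difference tied to length, 38 members rose and 2 fell, and the median over the members was 0.36 on the log2 scale. Of the 47 members that rose before, 35 did so after this step, and 3 members remained at least 2-fold higher. The 2 that fell were Mrpl24 (log2 fold change -0.33, edgeR adjusted p = 0.0129) and Mrpl22 (-0.41, edgeR adjusted p = 0.0472), the second of them named after its value was seen. In that fit 28 large subunit genes rose with a median of 0.43 and 10 small subunit genes with a median of 0.30. Among the members described singly, the calls of Mrpl10 (0.22, adjusted p = 0.106), Mrps11 (0.32, adjusted p = 0.0993), Mrps12 (0.28, adjusted p = 0.172), Mrps15 (0.26, adjusted p = 0.0982) and Mrps34 (0.41, adjusted p = 0.143) were lost in it. The part of exonic length in the members' rise was not tested.

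**Figure D4:**
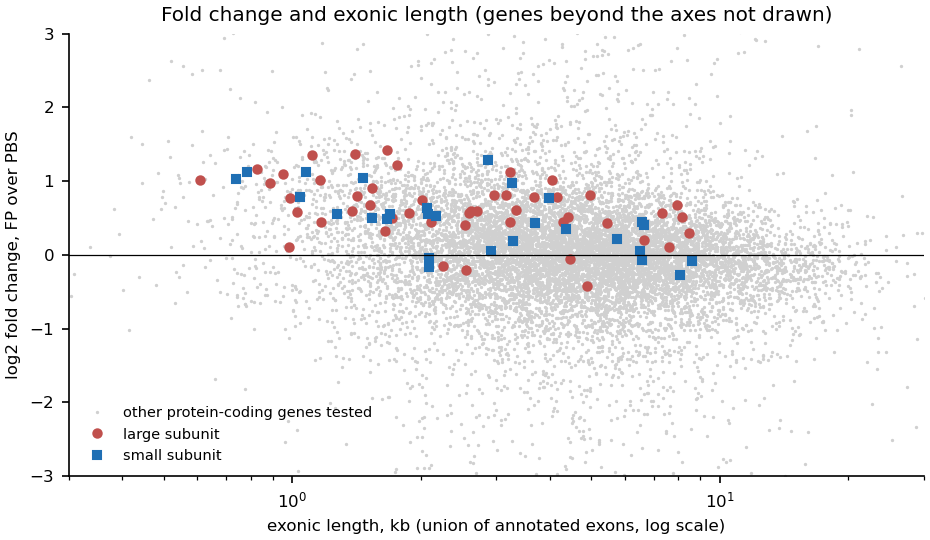
Log2 fold change (vertical axis, FP over PBS) against exonic length in kilobases (horizontal axis, log scale) for large subunit members (circles), small subunit members (squares) and the other protein-coding genes tested (grey dots). Members with short exons lie highest: their median is 1.01 in the shortest of 4 length classes and 0.30 in the longest.

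Many members start close to a gene on the opposite strand. A protein-coding gene started on the other strand within 1000 bp of the start of 33 of the 78 members (42.3%), against 10.9% of all 21951 protein-coding genes. Those 21951 include genes not tested here, as 11981 protein-coding genes were tested, whereas 76 of the 78 members were tested. The share over tested genes alone was not taken. The share was 49% (24 of 49) in the large subunit and 31% (9 of 29) in the small subunit. Of the 33 members with such a neighbour, all of them tested, 23 rose, with medians of 0.68 for the log2 fold change and 2064 bp for the exonic length, and of the 43 other members tested 24 rose, with medians of 0.50 and 3169 bp. Over the 31 members with a tested neighbour, the neighbour rose in 12, fell in 7 and did not pass in 12. Mrpl46 and Mrps11, both members, are counted there as each other's neighbour. Among all 11981 protein-coding genes tested, 3150 rose (26.3%) and 2368 fell.

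The pairs named next were chosen after their values were seen. Mrpl46 and Mrps11, which start 412 bp apart and are the pair in which both genes are members, rose by log2 fold changes of 0.80 and 0.53. The call of Mrpl46 was kept under each of the 17 alternatives and that of Mrps11 under 8. Mrpl46 had 21.6, 18.0, 14.9 and 11.9 CPM in FP libraries and 9.98, 9.53 and 9.02 CPM in PBS libraries. Mrps11 had 17.3, 17.1, 13.6 and 11.3 CPM in FP libraries and 10.4, 9.60 and 10.7 CPM in PBS libraries, so that both were above the PBS range in each FP library. Mrpl36 rose by 1.01 and Ndufs6, a subunit of respiratory complex I that starts 29 bp away, by 1.08. Mrpl51 rose by 1.02 and Ncapd2, a condensin subunit used in cell division, by 2.81. Mrpl43, in contrast, rose by 0.68 while Twnk, the helicase of mitochondrial DNA replication, fell by 0.67 on the log2 scale. Mrpl14 rose by 1.10 while Tmem63b fell by 0.62 on that scale. All of these genes passed the edgeR test, with adjusted p from 4.83e-06 for Ncapd2 to 0.0366 for Mrps11.

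The promoters of the members were searched on both strands for motifs of factors known to act on nuclear genes of mitochondrial proteins. RefSeq windows of 300 bases were found for 69 of the 78 members. The ETS motif CCGGAAG, which fits the GA-binding protein, was in 26 of the 69 (37.7%), against 9.93% of all 27025 genes with a window and 20.7% of the 9410 other protein-coding genes tested. The YY1 motif AAGATGGC was in 12 of the 69 (17.4%), against 3.19% of all genes and 5.31% of the other genes tested, and the NRF1 core CGCATGCG was in 7 (10.1%), against 2.07% and 4.34%. The E-box CACGTG, bound by Myc among others, was in 5 (7.25%), against 8.09% and 11.6%, and TATAAA was in 5 (7.25%), against 15.7% and 8.66%. No one of these motifs contains another, and the members' windows had a median GC content of 58.7%, against 52.7% in all windows. The motifs did not follow one pattern with the calls: ETS was in 16 of 41 members that rose and 8 of 26 that did not pass, YY1 in 9 of 41 and 3 of 26, and the NRF1 core in 2 of 41 and 5 of 26. A match is a description of the letters in these windows, not a bound site.

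Mitochondrial ribosomal proteins with other symbols were mixed. Chchd1 and Aurkaip1, both small subunit proteins, rose, with 27.7 ± 14.3 CPM in FP libraries and 11.3 ± 1.21 CPM in PBS libraries for Chchd1 (log2 fold change 1.29, edgeR adjusted p = 0.0268) and 63.8 ± 20.0 CPM in FP libraries and 27.0 ± 3.11 CPM in PBS libraries for Aurkaip1 (1.24, adjusted p = 0.00276). Gadd45gip1, of the large subunit, did not pass at 0.48 (adjusted p = 0.0519). Dap3 and Ptcd3, of the small subunit, did not pass either, at 0.11 (adjusted p = 0.375) and -0.12 (adjusted p = 0.401). The median of these 5 genes was 0.48.

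The genes that build and run the mitochondrial ribosome gave other counts than its proteins. Among all 15954 genes tested, 3355 rose and 2953 fell. Of 26 genes of ribosome assembly and ribosomal RNA modification tested, 1 rose and 5 fell, and the median was -0.06 on the log2 scale. Noa1, a GTPase of small subunit assembly, rose by 0.58 (edgeR adjusted p = 0.00561), and Mettl17 and Nsun4, methyltransferase family proteins of the mitochondrial ribosome, fell by 0.61 and 0.55 on the log2 scale (adjusted p = 0.00831 and 0.00833). Of 16 translation factors and messenger RNA binders, 4 rose and 2 fell (median 0.04): Oxa1l, which inserts new chains into the inner membrane, rose by 0.38 (adjusted p = 0.0182), while Guf1, an elongation factor, and Pdf, which takes the formyl group off the first residue of new chains, fell by 0.51 and 1.02 on the log2 scale (adjusted p = 0.00748 and 0.0217). Of 20 mitochondrial aminoacyl-tRNA synthetases and related enzymes, 2 rose and 5 fell (median -0.15). Mars2 had 26.8 ± 1.74 CPM in FP libraries and 41.8 ± 0.736 CPM in PBS libraries and fell by 0.64 on the log2 scale (adjusted p = 0.000776), and Ears2 fell by 0.79 (adjusted p = 0.00128).

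Of 12 genes of mitochondrial transcription and DNA maintenance, 1 rose and 4 fell (median -0.18), where 2953 of all 15954 genes tested fell. Tk2, the mitochondrial thymidine kinase, had 39.7 ± 1.71 CPM in FP libraries and 62.9 ± 2.51 CPM in PBS libraries and fell by 0.66 on the log2 scale (edgeR adjusted p = 0.000298), and Dguok, the deoxyguanosine kinase, fell by 0.63 (adjusted p = 0.00221). Among 9 regulators of mitochondrial biogenesis, Gabpa, the DNA-binding subunit of the GA-binding protein, rose by 0.29 (adjusted p = 0.0222), and Ppargc1b, a coactivator, fell by 0.92 on the log2 scale (adjusted p = 0.000528). Myc did not pass at 0.23 (adjusted p = 0.242). The mitochondrial ribosomal RNAs mt-Rnr1 (0.73, adjusted p = 0.153) and mt-Rnr2 (0.10, adjusted p = 0.885) did not pass, in libraries from which ribosomal RNA had been removed.

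Of the lists of import, respiratory chain and cytosolic ribosome genes, the nuclear genes of oxidative phosphorylation had the largest share of risen genes. Of 23 Tomm and Timm import genes tested, 10 rose (43.5%), 0 fell and 13 did not pass (median log2 fold change 0.48). Those that rose include Timm13 (1.17, edgeR adjusted p = 0.000889), Tomm22 (0.98, adjusted p = 0.0012) and Timm50 (1.12, adjusted p = 0.00122). Of 79 nuclear genes of oxidative phosphorylation, 67 rose (84.8%) and 2 fell (median 1.08), and the risen genes include Cox5a (1.24, adjusted p = 0.000193) and Atp5g3 (0.99, adjusted p = 0.000218). Cox6a2, a form of a cytochrome oxidase subunit known from muscle, had 0 counts in the 4 FP libraries and averaged 4.04 ± 1.79 CPM in PBS libraries (adjusted p = 0.000297). Of 85 cytosolic ribosomal proteins, 20 rose and 0 fell (median 0.71). That share of 23.5% is near the 21.0% of all genes and the 26.3% of protein-coding genes that rose. Even so, 84 of the 85 had a log2 fold change above 0, and 43 were higher at an unadjusted p under 0.05 in edgeR. Among the 20 are Rpl13a (0.76, adjusted p = 0.00279), Rps27l (2.08, adjusted p = 0.00723) and Rps2 (0.81, adjusted p = 0.00969). Of the 7 protein genes of mitochondrial DNA that could be tested, 0 passed in either direction at the adjusted or at an unadjusted p of 0.05 (median 0.55). Differences between these lists and the members were not tested.

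**Figure D5:**
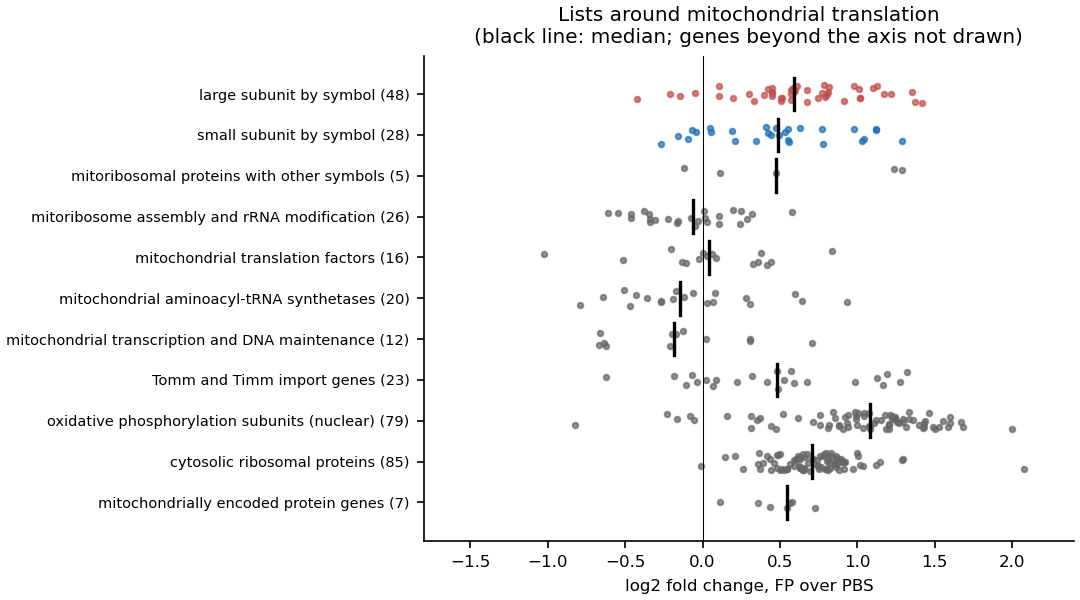
Log2 fold changes (horizontal axis, FP over PBS) of the members and of 9 lists of related genes (rows, with the number of genes tested), 1 point a gene, with the median as a black line. The large and small subunit medians are 0.59 and 0.49, those of assembly factors, synthetases and DNA maintenance genes are -0.06, -0.15 and -0.18, and that of oxidative phosphorylation is 1.08.

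Annotation adds a limit to the counts of some members. The exons of 28 tested members overlap those of another tested gene, 24 on the opposite and 4 on the same strand, and 19 of the 28 rose, while 28 of the 48 members with no such overlap rose. Mrps25 (69.8% of exonic bases, shared with Nr2c2) and Mrps34 were the 2 with over 50% overlap.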

How the data were processed

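Tregs sorted from spleens were sequenced in 4 FP and 3 PBS libraries. Per the labels' protocols, RNA was taken with TRIzol and a column, and 25 ng of total RNA per library went through a kit that removes ribosomal RNA, for a NextSeq 500. Per the series' design text and the submitters' processing notes, the authors mapped reads to GRCm38 with STAR (2.5.0 in the design text, 2.5.0b in the notes), counted them per gene of GENCODE vM13 with featureCounts 1.5.0 and used DESeq2. What the authors deposited is a table of read counts for each gene, not normalized. Strand setting and treatment of reads that fit several places are not given in the sources used here.

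Symbols, coordinates and union exonic lengths came from GENCODE vM21, of the same build, which held 50462 of the 51138 gene identifiers. FP was compared with PBS in edgeR 4.0.16 (R 4.3.3) over all genes left by filterByExpr, with TMM factors, the robust quasi-likelihood test and Benjamini-Hochberg adjustment over the 15954 genes tested, at a threshold of 0.05. Every adjusted p is from this test unless another is named. The test was also run, after the main fit, on counts simulated from the levels and spread of that fit. The outcome of that run is not given here. Floors for a count of 0 take 3 counts of the scaled library size, and cover counting error only (PCR copies of a molecule are counted as well). No other test was made over the members, and lists are described by counts and medians.

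Alternatives were DESeq2 size factors, upper-quartile factors, library size alone, no filter, at least 1 CPM in 3 libraries, edgeR without robust estimation, DESeq2 1.42.0, limma-voom 3.58.1, each library left out, a replicate block, and a trend on exonic length over protein-coding genes (lowess, span 0.3), which was added after seeing the data. Members and gene lists were chosen with earlier results of these data known. Values per library are given for the 5 largest and 5 smallest fold changes, the 3 most abundant genes per kilobase of each subunit in PBS libraries, Mrps30, Mrps36 and the 3 genes related to bacterial S18, Mrpl12, Mrpl11, Mrpl44, Mrps12, Mrps22 and Mrps34, 24 members in all. From each other list, up to 3 genes past the threshold with the smallest p are named, with Foxp3, Il2ra and Myc; 1 gene that this takes is not reported here. Mrpl10, Mrpl22, Mrpl53, Mrps23, Mrps25, the mitochondrial ribosomal RNAs and the pairs with a shared start region were named after their values were seen.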

Additional observations from a re-analysis of the deposited data

How the results depend on the processing

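No named member changed direction where it was called. Of the named members' values under the alternatives, 353 stayed on the same side of the threshold, 18 passed it only there and 37 lost it. With library size alone, 28 members rose (21 large, 7 small) and 5 fell, with medians of 0.29 over all members, 0.32 for the large and 0.20 for the small subunit. With upper-quartile factors 5 members fell and 8 small subunit genes rose. These 2 scalings moved the median of all genes to -0.31 and -0.25, and the members that fell under both were Mrpl23, Mrpl24, Mrpl38, Mrps10 and Mrps35. Limma-voom called 9 small subunit genes. With the trend on exonic length taken out, chosen after seeing the data, 2 members fell. Among members with no exon overlap, 28 of 48 rose. Leaving out 1 library gave 23 to 58 risen members (20 to 40 large, 3 to 18 small), 0 fallen ones and a median between 0.49 and 0.66. The lowest counts came without PBS library 3, and the cause of these shifts was not tested.

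Whether replicate numbers 1 to 3 pair the libraries was not settled. Same-numbered libraries correlated at 0.22, 0.07 and 0.10 in their deviations from the group means. FP libraries 1 and 3 correlated best with the PBS library of the same number, and FP library 2 with PBS library 1 (0.21). The highest correlation was that of FP library 4 with PBS library 3 (0.39). With a replicate block 59 members rose (41 large, 18 small), all 47 of the main test among them, against 58 in the same 6 libraries without the block, and 7839 against 7277 of all genes passed.

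The tested members had at least 33 counts in each library, and the median SE of their log2 fold changes was 0.18.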
